A study of Mus musculus with 18 samples.

Results

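10 genes of osteoclasts and of the RANK axis were followed in mouse knee cartilage after rupture of the anterior cruciate ligament (ACL). They were chosen by name, and 10 of the 49184 genes in the libraries met the rule. All 10 passed the filter on low counts. Tnfsf11, Tnfrsf11a and Tnfrsf11b encode the ligand RANKL, its receptor RANK and the decoy receptor osteoprotegerin. Oscar, Calcr, Dcstamp, Ocstamp, Atp6v0d2, Acp5 and Ctsk, here called the 7 osteoclast genes, encode a costimulatory receptor, the calcitonin receptor, a pair of fusion proteins, a subunit of the vacuolar proton pump, tartrate-resistant acid phosphatase (TRAP) and cathepsin K.

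RANKL is displayed or shed by cells of the osteoblast lineage, hypertrophic chondrocytes, fibroblasts and T cells. It binds RANK on myeloid precursors, which fuse into multinucleated osteoclasts, and osteoprotegerin captures RANKL before it can bind. Mature osteoclasts acidify the bone surface with the proton pump and release TRAP and cathepsin K, the protease that cuts collagen of bone. In the joint, osteoclasts lie in the subchondral bone beneath cartilage rather than within it, and cathepsin K is also made by fibroblasts and other mesenchymal cells.

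The 18 RNA-Seq libraries came from male C57Bl/6J mice aged 12 weeks. A single 12 N load was applied to the right knee, which ruptured the ACL. Cartilage caps of the femoral condyle were cut from the bone at the tidemark at day 1 or day 7. There were 3 libraries of injured knees and 3 of contralateral left knees from loaded mice at each day, and 6 of knees from naive mice, labelled day 7, which had no load. The contralateral knees therefore belonged to mice with a ruptured ACL in the other leg, and only the naive knees came from uninjured animals. Each library pooled cartilage of several mice. The series text gives 4 mice to a pool. The study's notes on its samples tie such pools to cartilage lost at day 7, and its methods give fewer mice in the day 1 and naive groups than pools of that size would need, so the pool size of those groups is uncertain. The methods pooled left and right knees separately, in naive mice too, so that the 6 naive libraries stand for fewer than 6 independent sets of animals, and the injured and contralateral knees of loaded mice also share animals. The labels do not say which libraries share mice, so the fits took all libraries as independent and standard errors and p-values measure only the spread between these libraries.

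Depth was 16074762 to 41794005 estimated counts per library (median 25465706). Day 7 contralateral replicate 1 stood apart, since its 10 most abundant genes held 42.5% of its counts, against 16.6% to 29.8% in the other libraries, and 24213 genes were above 0 in it, the fewest of all. The methods left 1 ACL library with a low mapping rate out of the study's analysis. They do not name it, so that whether it is among these 18 is not known. Values without day 7 contralateral replicate 1 are given beside the main comparisons that use its group. Libraries are compared by CPM, a library's counts scaled to its effective size, and genes by TPM, an abundance that also divides by transcript length. A change was called where it reached 1.5-fold and the false discovery rate (FDR) did not exceed 0.05, the FDR being the Benjamini-Hochberg adjusted p of the quasi-likelihood test of edgeR over 21262 genes.

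The tissue label was checked against marker genes. All 10 chondrocyte markers were above 0 in every library, with Col2a1, the main collagen of cartilage, at 2187 to 10448 CPM. The summed erythroid markers reached 16677 to 64543 CPM, above the chondrocyte sum of 3507 to 13713 CPM in every library, and the neutrophil markers of marrow summed to 7758 to 15832 CPM. The skeletal muscle markers summed to 3292 to 15207 CPM and the osteoblast and osteocyte markers, led by Col1a1, to 7725 to 55650 CPM. Transcripts of marrow, bone and muscle were thus present in all groups. In such bulk samples, fewer cells of a type and less RNA per cell cannot be told apart.

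The levels of the 10 genes differed widely. In TPM, the medians over 18 libraries were 165 for Acp5 and 123 for Ctsk, and these genes held the first and second place in every library. Atp6v0d2 followed at 7.33 TPM, then Tnfrsf11b at 3.98, Tnfrsf11a at 2.76, Dcstamp at 1.65, Tnfsf11 at 1.32, Oscar at 1.24 and Ocstamp at 0.781 TPM. Calcr was lowest in every library, with a median of 0.214 TPM and 6 to 65 counts per library, so that small changes in it could not be measured at this depth. RANKL was thus the least abundant of the 3 RANK axis transcripts by median TPM.

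**Figure D1:**
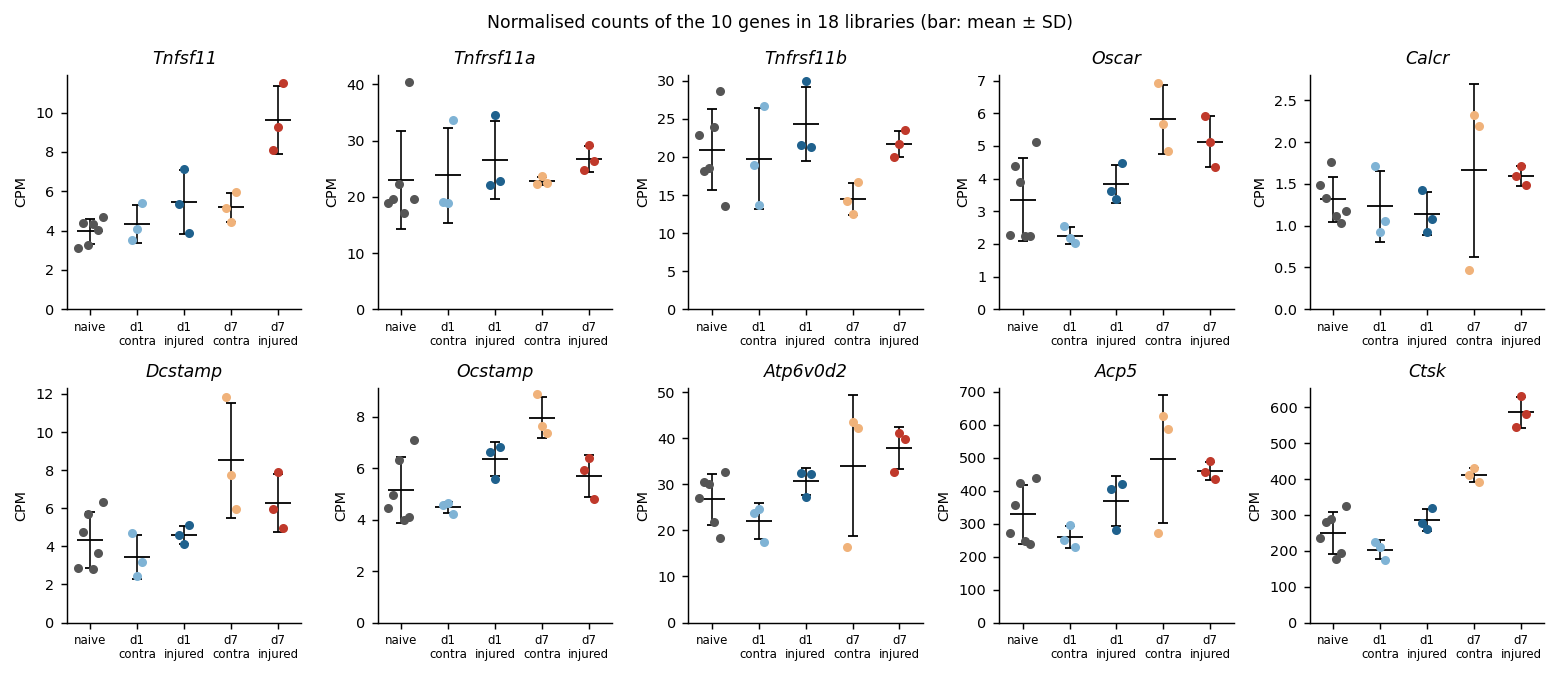
CPM of each gene (vertical axes, linear and starting at 0) in the 18 libraries by group (horizontal axes; d1 and d7, day 1 and day 7; contra, contralateral). Points are libraries and bars the mean ± SD; day 7 injured libraries lie above all others for Tnfsf11 and Ctsk only.

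Tnfsf11 and Ctsk rose in injured knees by day 7. Against naive knees, 2 of the 10 genes were called higher and 0 lower, beside 9.76% of all genes tested called higher and 5.57% lower. All 10 fitted fold changes were above 0, with a median log2 of 0.50 against -0.06 over all genes. In CPM the injured libraries lay wholly above the naive ones for 3 genes, Tnfsf11, Ctsk and Atp6v0d2, beside 17.3% of all genes. The common direction was not kept in TPM. Mean TPM was lower than in naive knees for Tnfrsf11a (2.62 against 2.75), Tnfrsf11b (3.41 against 4.05), Ocstamp (0.671 against 0.753) and Calcr (0.2015 against 0.2032), and higher for the remaining genes.

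Tnfsf11, the RANKL gene (chr14:78277445-78308043, minus strand, GRCm38), held 63 to 249 counts per library. Its level in naive knees was lowest at 3.11, with a median of 4.18 and a highest value of 4.67 CPM. It was 3.54, 4.08 and 5.42 CPM in day 1 contralateral knees, 5.36, 7.15 and 3.90 CPM in day 1 injured knees, 5.14, 4.46 and 5.95 CPM in day 7 contralateral knees and 8.08, 9.25 and 11.5 CPM in day 7 injured knees. In CPM each day 7 injured library was above each of the other libraries, while the remaining 4 groups overlapped. In TPM, which does not use the effective size, this order held against naive libraries only, which reached 1.15 TPM at most. Day 7 injured libraries were then at 1.39, 1.88 and 2.57 TPM. They overlapped the day 1 injured ones, at 1.68, 2.45 and 1.67 TPM, and both contralateral groups, which reached 1.48 TPM at day 1 and 1.54 TPM at day 7. Against naive knees Tnfsf11 was 2.42-fold higher (log2 1.28, SE 0.191, FDR 8.42e-05).

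Tnfsf11 was also the only one of the 10 genes called against day 7 contralateral knees, where 9.33% of all genes were called higher and 3.23% lower. The log2 fold change was 0.89 (SE 0.228, FDR 0.0108). Without day 7 injured replicate 3, its highest library, the log2 fold change was 0.73 and the FDR 0.0740, so that this call rests on that library. Without day 7 contralateral replicate 1 it was 0.90 with an FDR of 0.0242.

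Ctsk, the cathepsin K gene (chr3:95499256-95509362, plus strand), was the other gene called against naive knees. Naive libraries ranged from 177 CPM through a median of 257 to 325 CPM. Day 1 contralateral libraries were at 224, 212 and 175 CPM, day 1 injured libraries at 276, 260 and 320 CPM, day 7 contralateral libraries at 410.0, 430.6 and 391.7 CPM, and day 7 injured libraries at 544, 631 and 581 CPM. In CPM each day 1 group overlapped the naive one, and the day 1 injured libraries lay above the day 1 contralateral ones. By the same measure the day 7 contralateral knees were above all naive and day 1 libraries and the day 7 injured knees above those. In TPM this order was not kept. Day 7 contralateral libraries were at 59.3, 209 and 156 TPM, and replicate 1 of that group was the lowest of all libraries. Day 7 injured libraries, at 145, 198 and 202 TPM, overlapped them and the day 1 injured ones, at 134, 138 and 211 TPM. Both injured groups lay above the naive libraries, which reached 124 TPM at most. Ctsk was 2.34-fold higher in day 7 injured than in naive knees (log2 1.23, SE 0.153, FDR 1.19e-05). Against day 7 contralateral knees the log2 difference was 0.51 (SE 0.183, FDR 0.0608), which was not called, and without day 7 contralateral replicate 1 it was 0.53 (FDR 0.0902).

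Both genes were also called against day 1 injured knees, beside 8.01% of all genes called higher and 5.52% lower. Ctsk had a log2 fold change of 1.04 (SE 0.184, FDR 0.000816) and Tnfsf11 one of 0.81 (SE 0.225, FDR 0.0186). The Tnfsf11 call against day 1 was lost without day 1 injured replicate 1, day 1 injured replicate 3 or day 7 injured replicate 3, at an FDR of 0.0502, 0.0857 and 0.0943.

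Because these genes moved in the injured joint, the 250 bases before their RefSeq start sites (GRCm38.p6) are shown, written 5′ to 3′ on the strand of the gene. GGAAA can overlap a GAGGAA match. Capitals mark matches, on either strand, to GGAAA (the core of NFAT sites), GAGGAA (the core of PU.1 sites), CATGTG (an E-box bound by MITF), TGANTCA (AP-1) or TATAAA (the TATA box).
Tnfsf11, chr14:78308044-78308293, minus strand: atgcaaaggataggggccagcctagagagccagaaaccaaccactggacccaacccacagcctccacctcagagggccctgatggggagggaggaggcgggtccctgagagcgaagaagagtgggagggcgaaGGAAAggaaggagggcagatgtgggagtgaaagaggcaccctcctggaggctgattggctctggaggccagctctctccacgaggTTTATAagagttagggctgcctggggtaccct
Ctsk, chr3:95498960-95499209, plus strand: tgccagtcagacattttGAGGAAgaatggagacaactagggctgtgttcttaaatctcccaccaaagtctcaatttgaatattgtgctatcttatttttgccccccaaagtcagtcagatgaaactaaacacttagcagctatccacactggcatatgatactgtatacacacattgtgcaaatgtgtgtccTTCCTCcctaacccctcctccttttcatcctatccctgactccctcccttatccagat
The Tnfsf11 window held 1 NFAT core and, on the opposite strand from -32 to -27, 1 TATA box. The Ctsk window held 2 PU.1 cores, from -233 to -228 and, on the opposite strand, from -58 to -53. Among 32851 RefSeq promoter windows of this length, 55.6% held the NFAT core, 12.4% the TATA box, 23.3% the PU.1 core, 12.3% the E-box and 6.75% the AP-1 letters. No motif was shared by these windows, and a match is a description of letters only.

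Neither receptor of RANKL was called in any comparison. Tnfrsf11a, the gene of RANK (chr1:105780718-105847981, plus strand), ranged in naive knees from 17.2 through a median of 19.7 to 40.5 CPM. It was 22.3, 23.6 and 22.5 CPM in day 7 contralateral and 24.7, 29.2 and 26.3 CPM in day 7 injured knees. The naive range covers these only through replicate 5, since the other naive libraries reached 22.3 CPM at most, below every day 7 injured library. The log2 fold change against naive knees was 0.21 (95% interval -0.30 to 0.73, FDR 0.554), and without naive replicate 5 it was 0.45 (FDR 0.0782). The highest Tnfrsf11a values were in naive replicate 5, day 1 injured replicate 2 and day 1 contralateral replicate 3, at 40.5, 34.5 and 33.6 CPM. Each of these libraries also had the highest fibroblast marker sum of its group, at 4127, 4226 and 3912 CPM, whose part in the result was not tested.

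Tnfrsf11b, the gene of osteoprotegerin (chr15:54250619-54278484, minus strand), ranged in naive knees from 13.6 through a median of 20.7 to 28.6 CPM. It was 14.3, 12.5 and 16.7 CPM in day 7 contralateral knees, the lowest group, and 20.03, 21.67 and 23.50 CPM in day 7 injured knees. Injured libraries lay above the contralateral ones at day 7 (log2 0.58, 95% interval 0.06 to 1.11, FDR 0.119, and without day 7 contralateral replicate 1 log2 0.60, FDR 0.187) but inside the naive range (log2 0.05, 95% interval -0.40 to 0.50, FDR 0.882). The order of the group means was day 1 injured, day 7 injured, naive, day 1 contralateral and day 7 contralateral, and neighbours in that order overlapped.

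The number of Tnfsf11 counts per Tnfrsf11b count, a within-library ratio that needs no scaling between libraries, was 0.136 to 0.344 in naive knees, with a median of 0.179. It was 0.187, 0.299 and 0.203 in day 1 contralateral and 0.248, 0.239 and 0.183 in day 1 injured knees, inside the naive range. Day 7 contralateral knees were at 0.361, 0.357 and 0.357 and day 7 injured knees at 0.404, 0.427 and 0.490. Both day 7 groups of loaded mice were therefore above all naive and day 1 libraries. The injured group had the highest mean of Tnfsf11 (9.62 CPM) and the contralateral group the lowest mean of Tnfrsf11b (14.5 CPM), beside a Tnfsf11 mean of 5.18 CPM. With 66 to 249 Tnfsf11 counts in these libraries, the 95% exact binomial counting intervals were wide, from 0.268 to 0.480 in day 7 contralateral replicate 1 and from 0.337 to 0.481 in day 7 injured replicate 1. They overlapped the interval of naive replicate 6 (0.280 to 0.420), cover counting error only, and no test was made of the ratio.

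**Figure D2:**
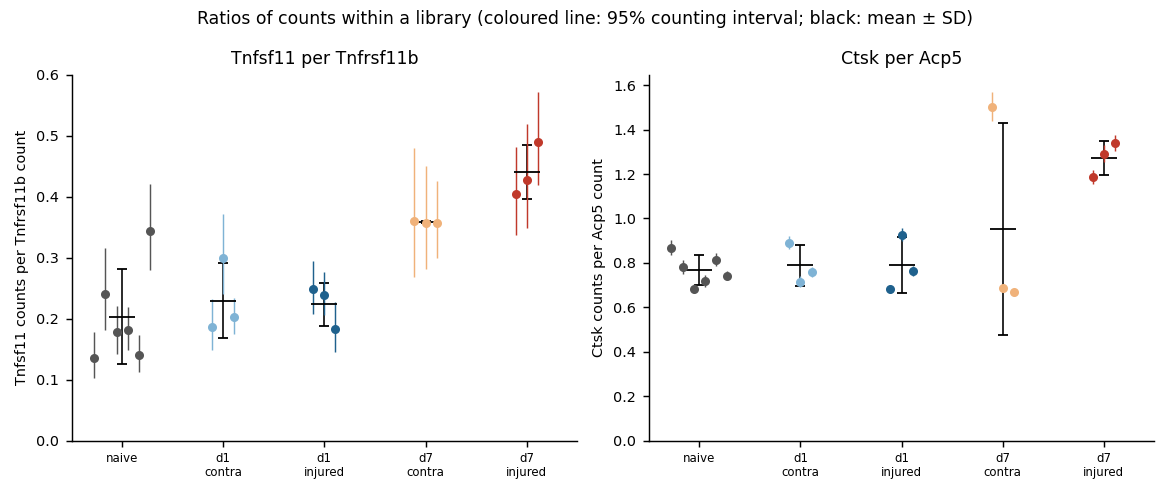
Counts of Tnfsf11 per count of Tnfrsf11b and of Ctsk per count of Acp5 (vertical axes, starting at 0) in each library by group. Points are libraries, coloured lines 95% counting intervals and black bars the mean ± SD; the Tnfsf11 ratio lies between 0.404 and 0.490 in day 7 injured knees and between 0.136 and 0.344 in naive knees.

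The other osteoclast genes were not called in injured knees. Against naive knees at day 7, the 6 beside Ctsk had log2 fold changes from 0.14 (Ocstamp) to 0.61 (Oscar) and FDRs from 0.0824 (Oscar) to 0.586 (Calcr). Without naive replicate 6, Oscar was called (log2 0.78, FDR 0.0226). Intervals were broad: the 95% interval for Acp5 ran from -0.01 to 0.98 and that for Dcstamp from -0.069 to 1.104.

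Acp5, the TRAP gene and the most abundant of the 10 by median TPM, was at 237 to 438 CPM in naive knees, with a median of 314 CPM. It was at 404, 281 and 420 CPM in day 1 injured, 273, 626 and 586 CPM in day 7 contralateral and 458, 489 and 434 CPM in day 7 injured knees. The highest 2 values thus came from day 7 contralateral libraries, and one naive library exceeded one day 7 injured library. Atp6v0d2, which encodes the osteoclast form of the pump's d subunit, was at 18.4 to 32.6 CPM in naive and 32.7, 41.2 and 39.9 CPM in day 7 injured knees (log2 0.50, FDR 0.126).

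The fusion genes were low, and the day 7 contralateral group had their highest mean in CPM. In TPM the highest mean was that of day 1 injured knees, at 2.26 against 2.19 in day 7 contralateral knees for Dcstamp and 1.37 against 1.01 for Ocstamp. Dcstamp, the main fusion receptor of osteoclast precursors, was at 2.84 to 6.31 CPM in naive knees, 11.8, 7.76 and 5.95 CPM in day 7 contralateral and 5.95, 7.92 and 4.95 CPM in day 7 injured knees. Ocstamp, its partner, was at 3.99 to 7.09 CPM in naive, 8.88, 7.67 and 7.37 CPM in day 7 contralateral and 5.95, 6.40 and 4.81 CPM in day 7 injured knees. For Ocstamp the day 7 injured libraries lay wholly below the contralateral ones (log2 -0.48, SE 0.202, FDR 0.114), without being called, and without day 7 contralateral replicate 1 the log2 value was -0.37 (FDR 0.276). Oscar, whose product costimulates RANK through an immunoreceptor adaptor, was at 2.23 to 5.13 CPM in naive knees, 6.94, 5.66 and 4.83 CPM in day 7 contralateral and 5.90, 5.13 and 4.35 CPM in day 7 injured knees.

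**Figure D3:**
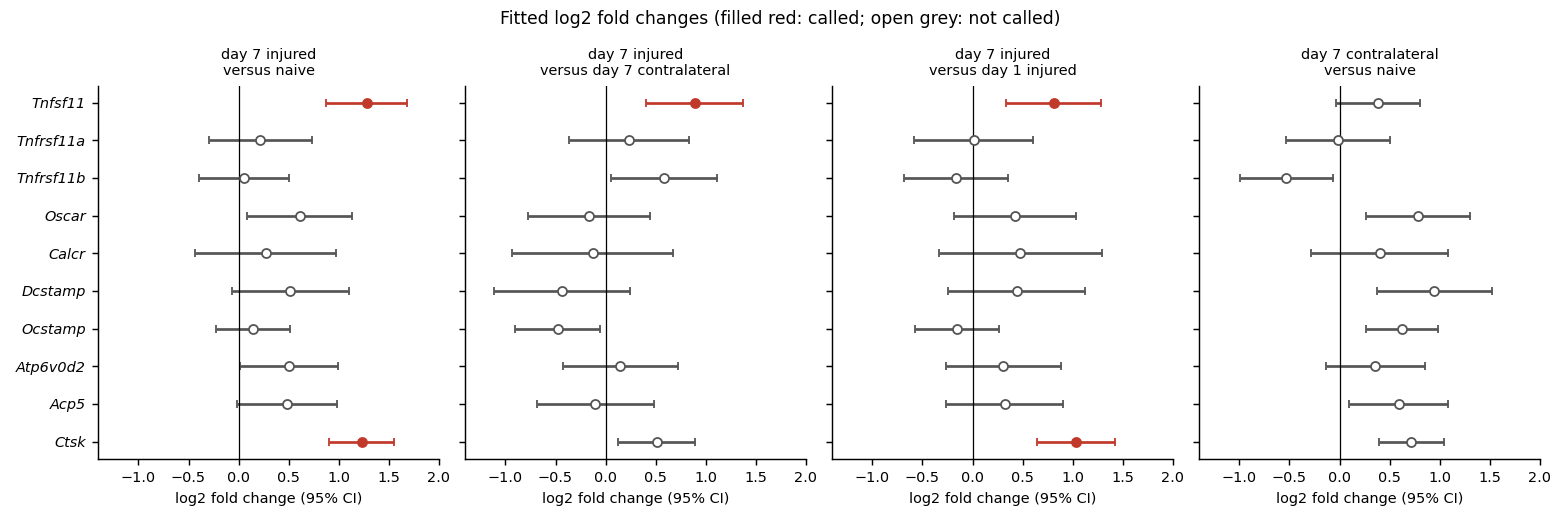
Fitted log2 fold changes of the 10 genes (horizontal axes) with 95% intervals in 4 comparisons. Filled red points were called and open grey points were not; Tnfsf11 was called in 3 of the panels and Ctsk in 2, and none was called by edgeR in day 7 contralateral against naive knees.

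In the contralateral knees at day 7, 0 genes were called against naive knees by edgeR, beside 0% of all genes. At an unadjusted p under 0.05, 6 of the 10 genes passed, beside 15.1% of all genes. These were Ctsk, Dcstamp, Ocstamp, Oscar, Acp5 and, in the downward direction, Tnfrsf11b. The share of all genes was 5.51% without day 7 contralateral replicate 1, and the count of the 10 genes in that fit is not given here. All 7 osteoclast genes had a log2 fold change above 0, with a median of 0.62 against -0.03 over all genes. Ctsk had a log2 fold change of 0.72 (SE 0.154, FDR 0.248). DESeq2 called 1 of the 10, Ctsk, beside 0.146% of all genes, and limma-voom 0. Without day 7 contralateral replicate 1 all 7 were above 0, with a median of 0.68, and the FDR of Ctsk was 0.712. The log2 value was then 0.64 in place of 0.95 for Dcstamp, 0.64 in place of 0.78 for Oscar and 0.54 in place of 0.62 for Ocstamp. It was 0.77 in place of 0.40 for Calcr, 0.68 in place of 0.36 for Atp6v0d2 and 0.88 in place of 0.59 for Acp5. Several other lists were mostly above 0 too, with no marker called by edgeR. Among these were 9 of 11 osteoblast and osteocyte markers (median log2 0.35, and 0.37 without that library). Others were 5 of 5 hypertrophic chondrocyte markers (0.34, and 0.38 without it) and 7 of 8 neutrophil markers (0.22, and 0.32 without it). T cell markers were 6 of 6 (0.27, and 0.21 without it) and macrophage and monocyte markers 9 of 11 (0.08, and 0.10 without it). Skeletal muscle markers went the other way, with 0 of 6 above 0 (-0.66, and -0.48 without it). At an unadjusted p under 0.05 there were 3 osteoblast and osteocyte, 2 hypertrophic chondrocyte, 3 neutrophil, 1 T cell and 1 macrophage and monocyte markers. Without that library there were 4, 3, 0, 2 and 2. The part of these cells in the osteoclast values was not tested. This comparison and that of day 7 injured with naive knees share the naive libraries.

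The day 7 injured libraries lay wholly above the contralateral ones for 4 of the 10 genes (Tnfsf11, Tnfrsf11a, Tnfrsf11b and Ctsk), beside 18.6% of all genes, and wholly below for 1 (Ocstamp), beside 14.3%. With day 7 contralateral replicate 1 left out they lay above for the same 4 genes and below for 4 (Acp5, Atp6v0d2, Calcr and Ocstamp), beside 26.0% and 24.3% of all genes. Against day 7 contralateral knees, the 7 osteoclast genes of day 7 injured knees had a median log2 fold change of -0.13, with 2 above 0, Ctsk and Atp6v0d2. Without day 7 contralateral replicate 1 the median was -0.15 and only Ctsk stayed above 0. By CPM, that library was the highest of all 18 for Dcstamp, Oscar and Ocstamp and the lowest for Atp6v0d2, at 16.4 CPM, and Calcr, at 0.468 CPM. By TPM it was the lowest of all 18 for Ocstamp (0.495), Atp6v0d2 (1.35), Calcr (0.0272), Acp5 (46.0) and Ctsk (59.3). For Dcstamp (1.48 TPM) and Oscar (1.08 TPM) it was inside the range of the other libraries. Its osteoblast marker sum, 98.6% of it Col1a1, was 53179 CPM, against 16489 and 22733 CPM in the other day 7 contralateral libraries, and its erythroid sum of 64543 CPM was the highest of all. The part of these transcripts in its osteoclast values was not tested.

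Between day 7 and day 1 contralateral knees 0 of the 10 genes were called by edgeR, beside 0.0188% of all genes. This comparison shares the day 7 contralateral libraries with the one above. At an unadjusted p under 0.05, 6 of the 10 genes passed (Ctsk, Oscar, Ocstamp, Dcstamp, Acp5 and Atp6v0d2), beside 12.4% of all genes, and all 7 osteoclast genes were above 0 with a median log2 of 0.94. Ctsk had the lowest FDR (log2 1.01, SE 0.184, FDR 0.0940). DESeq2 called 4 of them (Ctsk, Dcstamp, Ocstamp and Oscar), beside 0.376% of all genes, and limma-voom 0. Without day 7 contralateral replicate 1 all 7 were above 0 with a median of 0.98, the FDR of Ctsk was 0.186, and the log2 value was 0.98 in place of 1.29 for Dcstamp and 0.88 in place of 0.50 for Calcr. Most markers of bone and hypertrophic cartilage were also above 0, with none called by edgeR. Of the hypertrophic chondrocyte markers 5 of 5 were above 0 (median log2 0.86, 4 at an unadjusted p under 0.05), and of the osteoblast and osteocyte markers 9 of 11 (median 0.65, 7 at that p). With that library left out the medians were 0.72 and 0.60. Neutrophil markers were 7 of 8 above 0 (median 0.36, 3 at that p) and chondrocyte markers 7 of 10 (0.44, 5 at that p), with none called. With that library left out these were 8 of 8 (0.40, 1 at that p) and 9 of 10 (0.19, 1 at that p). Skeletal muscle markers went the other way, with 0 of 6 above 0 (-0.64, and -0.43 without that library). The part of these lists in the osteoclast values was not tested.

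At day 1 no change was called. Against naive knees 0 of the 10 genes were called in injured knees by edgeR, DESeq2 or limma-voom, beside 0% of all genes by edgeR. At an unadjusted p under 0.05, 1 gene passed, Tnfsf11, at a log2 fold change of 0.47 (SE 0.195), beside 3.03% of all genes. Against day 1 contralateral knees, 0 genes were called by these tools, beside 0% of all genes by edgeR, and 3 genes passed an unadjusted p under 0.05 (Ocstamp, Ctsk and Oscar), beside 4.60% of all genes. Their log2 fold changes were 0.51, 0.49 and 0.76. The injured libraries of these and of Atp6v0d2 lay wholly above the contralateral ones, which makes 4 of the 10 genes beside 5.09% of all genes. In the same comparison 10 of 11 osteoblast and osteocyte markers were above 0 (median log2 0.46, 6 at an unadjusted p under 0.05, 4 with the injured libraries wholly above) and 5 of 5 hypertrophic chondrocyte markers (median 0.47, 1 at that p), with 0 called by edgeR, and their part was not tested. Day 1 contralateral knees also gave 0 calls against naive knees by each tool, beside 0% of all genes by edgeR. Only 1 gene, Oscar, had an unadjusted p under 0.05, beside 1.88% of all genes. All 7 osteoclast genes were below 0 there (median log2 -0.30). Of the markers, 0 of 5 for hypertrophic chondrocytes (median -0.42), 0 of 10 for chondrocytes (-0.35) and 1 of 11 for osteoblasts and osteocytes (-0.24) were above 0. Above 0 were 6 of 6 T cell (0.21) and 6 of 7 erythroid markers (0.05). No marker of these lists was called by edgeR, and their part was not tested.

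The difference between the injury effects of day 7 and day 1, each against its own contralateral knees, was tested as an interaction. None of the 10 genes was called by edgeR, beside 3.77% of all genes, 2 passed an unadjusted p under 0.05 (Ocstamp and Oscar), beside 16.3% of all genes. DESeq2 called 1 (Ocstamp), beside 5.13% of all genes, and limma-voom 0. Ocstamp was nearest, with a difference of -0.98 in log2 fold change (SE 0.284, FDR 0.0635), and without day 7 contralateral replicate 1 with -0.88 (FDR 0.102). For Ctsk the difference was 0.02 (SE 0.258) and for Tnfsf11 0.56 (SE 0.320, FDR 0.416), and without that library 0.05 (FDR 0.958) and 0.58 (FDR 0.411), so that for neither gene was the injury effect shown to differ between the days.

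The level of the osteoclast genes also varied among naive pools. The mean centred log2 CPM of the 7 genes was -0.55 in naive replicate 4 and -0.54 in naive replicate 5, against 0.16 and 0.23 in naive replicates 3 and 6. This range covered the day 1 injured libraries (-0.21 to 0.12) and reached day 7 contralateral replicate 1 (0.10). The other day 7 libraries, from 0.27 to 0.63, were above it. Dcstamp counts per Acp5 count were 0.0106 to 0.0154 in naive, 0.0083 to 0.0188 in day 1 contralateral, 0.0113 to 0.0147 in day 1 injured and 0.0114 to 0.0162 in day 7 injured knees. In the day 7 contralateral libraries they were 0.0434, 0.0124 and 0.0101.

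Ctsk counts per Acp5 count were 0.684 to 0.869 in naive knees and 0.683 to 0.927 in day 1 injured knees. They were 1.19, 1.29 and 1.34 in day 7 injured knees, and 1.504, 0.688 and 0.668 in day 7 contralateral knees. All day 7 injured libraries and day 7 contralateral replicate 1 stood above the rest. These 4 libraries also had the highest sums of the osteoblast and osteocyte list, from 47899 to 55650 CPM against 7725 to 22733 CPM in the remaining libraries. In these 4, Col1a1, a collagen that fibroblasts make too, was 98.1% to 98.6% of the sum, and its part in the ratio was not tested.

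The Acp5 counts were spread over 6 transcripts of the gene (chr9:22126727-22135711, minus strand). Acp5-202, which starts at 22130598, held 66.1% of them over all libraries. Acp5-201, which starts at 22131815, held 7.5% to 18.9% in naive knees and 20.3%, 29.5% and 25.6% in day 7 injured knees. In day 7 contralateral knees it held 18.05%, 17.79% and 12.02%. Every day 7 injured library was thus above every other library, but transcripts that share most exons are divided by estimation and no test was made of the shares. The 250 bases before the RefSeq start nearest to Acp5-201 held 1 NFAT core, in capitals.
Acp5, chr9:22131866-22132115, minus strand: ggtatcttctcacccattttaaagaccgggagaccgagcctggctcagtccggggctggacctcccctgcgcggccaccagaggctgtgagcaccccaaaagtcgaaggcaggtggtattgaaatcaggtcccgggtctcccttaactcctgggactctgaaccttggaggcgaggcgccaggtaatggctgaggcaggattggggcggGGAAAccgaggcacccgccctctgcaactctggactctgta
A gene on the opposite strand, 6530413G14Rik, overlaps an exon of Acp5 but held only 0 to 12 counts per library, against 3499 to 17348 for Acp5.

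Of 55 further genes of RANK signalling and osteoclast function, all tested, 2 were called higher and 0 lower in day 7 injured against naive knees, beside 9.76% and 5.57% of all genes. By FDR alone, 11 were higher and 5 were lower, beside 15.3% and 9.11% of all genes. Their median log2 fold change was 0.09 against -0.06 over all genes. In day 7 contralateral against naive knees 0 of the 55 were called by edgeR or limma-voom, 1 by DESeq2 (Atp6v1b2), beside 0.146% of all genes by DESeq2, and 24 passed an unadjusted p under 0.05 in edgeR, beside 15.1% of all genes. Among these were 10 of the 13 genes of acid and bone resorption, whose median log2 fold change there was 0.32 against -0.03 over all genes. Without day 7 contralateral replicate 1, 14 of the 55 and 8 of the 13 passed, beside 5.51% of all genes in that fit, and the median of the 13 was 0.23.

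The genes called were Itgav and Mitf. Itgav, the αv integrin chain that pairs with β3 in osteoclast adhesion and with other chains in many cells, was at 119.2 to 165.2 CPM in naive and 227, 241 and 250 CPM in day 7 injured knees (log2 0.74, FDR 0.000138). Mitf, a transcription factor of osteoclasts and melanocytes, was at 13.1 to 16.5 CPM in naive and 20.3, 23.3 and 24.7 CPM in day 7 injured knees (log2 0.62, FDR 0.000120). For both genes the injured libraries lay wholly above the naive ones. The Mitf call was lost with protein-coding transcripts only and on leaving out day 7 injured replicate 3, while Nfatc1 was called without day 7 injured replicate 1 or 2.

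Nfatc1, the master transcription factor downstream of RANK, had a log2 fold change of 0.54 against naive knees (FDR 0.0114), just under the 1.5-fold limit, at 77.9 to 91.3 CPM in naive and 107, 112 and 150 CPM in day 7 injured knees. The receptor Csf1r and its ligand Csf1, which keep osteoclast precursors alive, had log2 fold changes of 0.30 (FDR 0.0552) and -0.08 (FDR 0.791). Traf6, the adaptor that carries the RANK signal, was at 0.09 (FDR 0.442) and Tyrobp, the adaptor DAP12 of costimulation, at -0.25 (FDR 0.216). Among genes of attachment and resorption, Itgb3 was at -0.30 (FDR 0.0805) and Mmp9, a protease shared with neutrophils, at 0.00 (FDR 0.996). Tcirg1, the osteoclast subunit of the pump, was at 0.02 (FDR 0.934) and Atp6v0d1, the ubiquitous form of the d subunit, at 0.17 (FDR 0.189). Others in these roles did pass by FDR alone. Of the 13 genes of acid and bone resorption 3 were higher and 1 lower, beside 15.3% and 9.11% of all genes. Of the 6 genes of adhesion and fusion 3 were higher and 0 lower.

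Against day 7 contralateral knees, 3 of the 55 genes were called higher and 2 lower, beside 9.33% and 3.23% of all genes. By FDR alone, 6 were higher and 11 lower, beside 12.5% and 6.16% of all genes. The injured libraries lay wholly above the contralateral ones for 15 of the 55 and wholly below for 18, beside 18.6% and 14.3% of all genes, and without day 7 contralateral replicate 1 for 17 and 20, beside 26.0% and 24.3%. Nfatc1 (log2 0.69, FDR 0.00870), Mitf (0.72, FDR 0.000197) and Itgav (0.61, FDR 0.00466) were higher. Syk, a kinase downstream of the costimulatory adaptors, and Irf8, a myeloid factor that restrains osteoclast formation, were lower, at log2 fold changes of -0.62 (FDR 0.000409) and -0.75 (FDR 0.00111), and were named after their values were seen. Without day 7 contralateral replicate 1, Mitf was called, while Nfatc1 (log2 0.49), Itgav (0.56), Syk (-0.46) and Irf8 (-0.55) had an FDR of at most 0.0174 and did not reach 1.5-fold. Marrow markers were lower in the same comparison. Of 8 neutrophil markers 3 were called lower (median log2 -0.68) and of 7 erythroid markers 4 (median -0.66), and in both lists the injured libraries lay wholly below for 6. With that library left out 2 neutrophil and 0 erythroid markers were called, at medians of -0.62 and -0.47, and 8 and 4 had an unadjusted p under 0.05. The part of marrow cells in the values of Syk and Irf8 was not tested.

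**Figure D4:**
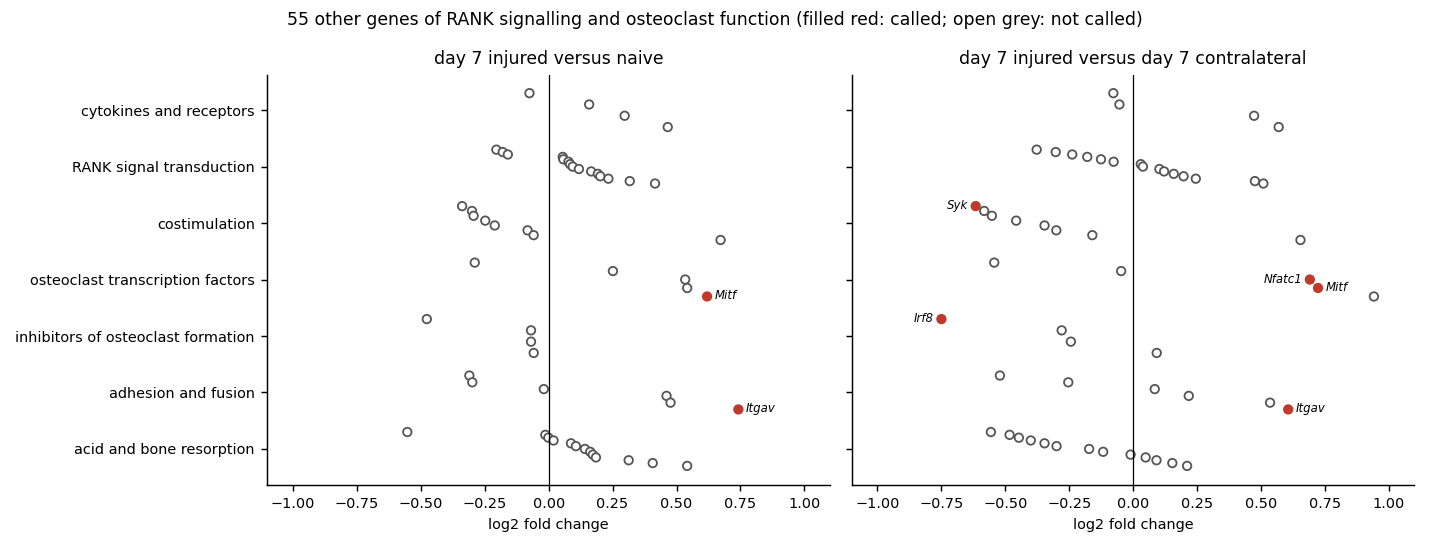
Log2 fold changes (horizontal axes) of the 55 pathway genes in rows by role, in day 7 injured against naive and against day 7 contralateral knees. Each point is a gene, filled red and named where called and open grey otherwise; 2 genes were called in the naive panel and 5 in the contralateral one.

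The lists of other cell types moved unequally, and differences between lists were not tested. Their counts in day 7 injured against naive knees stand beside 9.76% of all genes called higher, 5.57% called lower and 36.9% at an unadjusted p under 0.05. The 7 markers of synovial and connective fibroblasts, led by Col3a1, summed to 23301, 23493 and 26772 CPM in day 7 injured knees against 2093 to 4127 CPM in naive knees, and 4 of the 7 were called higher (median log2 of the list 1.68). The 11 osteoblast and osteocyte markers, led by Col1a1, summed to 51938, 47899 and 55650 CPM against 9205 to 17697 CPM, with 2 called higher (Col1a1 and Ibsp) and 1 lower (Sost). Col1a1 alone made up 98.1% to 98.4% of these day 7 injured sums, only 4 of the 11 markers had a log2 fold change above 0, and the median was -0.02. The 11 macrophage and monocyte markers, led by Lyz2, summed to 2474 to 3074 CPM in day 7 injured and 2496 to 3283 CPM in naive knees, with 0 called by edgeR, DESeq2 or limma-voom. Lyz2, at a log2 fold change of -0.13, made up 61.6% to 67.0% of these day 7 injured sums. Of the 11 markers 8 were above 0, with a median log2 fold change of 0.31 against -0.06 over all genes, and by FDR alone 2 were higher (Adgre1, log2 0.44, and C1qb, log2 0.56) and 1 lower (Itgam, log2 -0.33). The 6 T cell markers, led by Cd4, did not exceed a sum of 31.9 CPM in any library, with 0 called by these tools and 1 at an unadjusted p under 0.05. Of the remaining lists, 3 of 10 chondrocyte markers (Sox9, Acan and Comp), 1 of 5 hypertrophic chondrocyte markers (Mmp13) and 3 of 5 endothelial markers were called higher, and 4 of 7 erythroid, 1 of 7 B lineage (Ms4a1) and 1 of 6 skeletal muscle markers (Acta1) lower. Of 8 neutrophil markers 0 were called by edgeR or limma-voom, 1 by DESeq2 (S100a9), and 2 passed an unadjusted p under 0.05. No marker of these lists was at 0 in any library. The part of the fibroblast markers and of Col1a1 in the Tnfsf11 and Ctsk results was not tested.

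**Figure D5:**
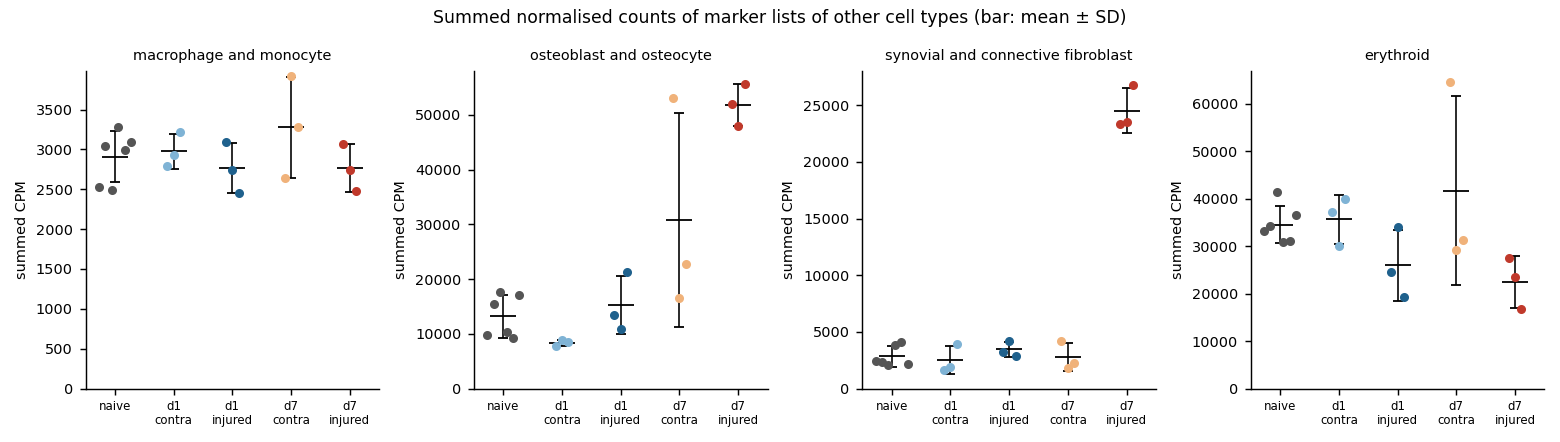
Summed CPM of 4 marker lists (vertical axes, linear and starting at 0) in each library by group. Points are libraries and bars the mean ± SD; the fibroblast sum is at 23301 CPM or more in day 7 injured knees and at 4227 CPM or less elsewhere, while the macrophage sums of all groups overlap.

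The genes with the most similar profile over the 18 libraries were found by the root mean square (RMS) difference of centred log2 CPM, over 21252 genes. Nearest to the mean of the 7 osteoclast genes were Podnl1, Ak5, Slc9b2, Kazn and Mst1r, with RMS differences of 0.155 to 0.192 against a median of 0.511 over all genes. Slc9b2 was at means of 13.9 CPM in naive, 21.3 CPM in day 7 contralateral and 22.7 CPM in day 7 injured knees. Nearest to Tnfsf11 were Mex3a, Iffo2 and Golt1b (0.196 to 0.214, median of all genes 0.607), nearest to Tnfrsf11a were Abcc3, Cx3cr1 and Slc35f6 (0.179 to 0.181, median 0.475), and nearest to Tnfrsf11b were Fgf2, Pid1 and Pappa2 (0.145 to 0.210, median 0.492). Golt1b was at means of 27.3 CPM in naive and 54.5 CPM in day 7 injured knees. These are descriptions over libraries that share groups and carry no test.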

How the data were processed

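The authors deposited, for each of 18 libraries, each transcript's estimated count and TPM, made with Kallisto from stranded, ribosome-depleted total RNA reads against the mouse GRCm38 transcriptome; the strand setting is not given in the sources used here. The authors deposited transcript lengths beside them. The labels name GRCh38 as the build, but the transcript IDs are of mouse.

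Transcript IDs without version were matched to the GENCODE M21 annotation of GRCm38 (135107 of 137436 transcripts, 98.3%) and their estimated counts were summed per gene and rounded. The 2329 unmatched transcripts, 0.667% to 3.90% of a library's counts, were left out. One fit of edgeR 4.0.16 (filterByExpr, TMM, quasi-likelihood test) on all 18 libraries with a mean per group gave each comparison, adjusted over 21262 genes. Intervals of fold changes used its degrees of freedom. The study's own fit, limma-voom, allowed for libraries of the same mouse pool with duplicateCorrelation. The labels do not name the pools, so no fit here did so. DESeq2 1.42.0 and limma 3.58.1 were alternatives, with others of scaling, filter, transcripts and threshold and each library left out. The fit was tested on simulated data.

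The named genes are the 10, of the pathway list Csf1, Csf1r, Tyrobp, Nfatc1, Mmp9, Tcirg1, Itgb3, Traf6 and Atp6v0d1 with up to 3 called per role against naive knees, and the nearest profiles. The genes and lists were chosen with earlier results of these data known. One item of the pathway list is not reported here. Promoter windows were taken from RefSeq (GRCm38.p6), where 6 of the 10 genes matched. Motifs were searched on both strands. The other marker lists were chondrocyte, hypertrophic chondrocyte, neutrophil, erythroid, B lineage, endothelial and skeletal muscle.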

Additional observations from a re-analysis of the deposited data

Results flagged for a closer look

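Among 23 groups of 4 or more libraries checked, 2 held a value far from the others by Dixon's criterion (gap over range above 0.625 for 6 libraries), where chance gives about 1 in 20. Tnfrsf11a in naive replicate 5 was at 40.5 CPM, against 17.2 to 22.3 CPM in the other naive libraries (gap over range 0.781). The summed CPM of the chondrocyte markers in naive replicate 3 was 7495, against 4015 to 5037 in the other naive libraries (gap over range 0.706). The causes were not tested.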

How the results depend on the processing

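Tnfsf11 and Ctsk were called in day 7 injured against naive knees under each of the 9 other settings and with each library left out. The setting without the fold limit could not lose a call, and no setting scaled libraries by their totals alone. Counts of members moved elsewhere. At an FDR of at most 0.01 the count was 0 against day 7 contralateral and 1 against day 1 injured knees. With DESeq2 it was 1 in day 7 contralateral against naive knees, 4 in day 7 against day 1 contralateral knees and 1 in the interaction (Ocstamp), the last also 1 with protein-coding transcripts only. With libraries left out, the count ranged from 2 to 3 in day 7 injured against naive knees, from 0 to 1 against day 7 contralateral knees, from 1 to 2 against day 1 injured knees, from 0 to 1 between the contralateral groups (Ctsk, without naive replicate 6) and from 0 to 1 for the interaction (Ocstamp, without naive replicate 6). Oscar was called in day 7 injured against naive knees without naive replicate 6 (log2 0.78, edgeR FDR 0.0226). Pathway genes called against naive knees were 16 without the fold limit and from 1 (without day 7 injured replicate 3) to 5 (without day 7 injured replicate 2) with libraries left out. Against day 7 contralateral knees, 5 pathway genes were called by edgeR, 7 by DESeq2, 5 by limma-voom and 1 without day 7 contralateral replicate 1, alternatives that were chosen after seeing the data. The causes were not tested beyond the choice of threshold. No called value changed sign. No paired analysis was possible because the labels give no replicate numbers and do not say which libraries share mice, although the study's fit took account of the mouse pool. Fewer than 70 counts of Calcr per library limit its precision.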
